A study of Mus musculus with 6 samples.

Results

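The genes described here encode the machinery of major histocompatibility complex (MHC) class II antigen presentation: H2-Ab1, H2-Aa, H2-Eb1, H2-DMb1, H2-DMa and Cd74. They were chosen by gene symbol from the 12023 genes of the deposited count table, and all 6 listed members were present. Their levels in the strains were already known when the list was drawn up, so their strain differences are a description without a test. The libraries came from normal mammary fibroblasts of healthy females aged 8 to 12 weeks, grown from the mammary fat pad and cultured for 4 days. Of the 6 libraries, 3 were from BALB/c and 3 from C57BL/6 mice. Neither strain carried a stated transgene or received a treatment. Cells were plated on rat-tail collagen, and the sources name no target for the magnetic separation. Libraries counted the 3′ ends of polyadenylated RNA, with totals of 1035485 to 4665896 counts. Summed CPM (counts scaled to a common library size) of mammary epithelial markers was higher than that of fibroblast markers in 4 of the 6 libraries, by most in C57BL/6 replicate 1, whose markers go against the fibroblast label.

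Class II molecules are pairs of an alpha and a beta chain that carry peptides from the endosome to the cell surface, where CD4 T cells read them. The mouse makes a pair called I-A, from H2-Aa and H2-Ab1, and a pair called I-E, whose beta chain comes from H2-Eb1. Cd74 encodes the invariant chain, which escorts new pairs to the endosome, and the DM pair, from H2-DMa and H2-DMb1, exchanges its last fragment for a peptide. Professional antigen-presenting cells such as macrophages, dendritic cells and B cells express the set strongly, and fibroblasts take it up mainly after interferon gamma. BALB/c mice carry the H2 d haplotype and C57BL/6 mice the b haplotype. The b haplotype has a defective I-E alpha gene and shows no I-E on the cell surface, although its beta chain gene is intact.

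Class II promoters are known for an X box and a Y box at a fixed spacing, which the transcription factors RFX and NF-Y bind. The RefSeq promoter table (GRCm38.p6, C57BL/6J) held start sites for 4 of the 6 members. The stretches below show this layout in H2-Aa and H2-Eb1, the I-A and I-E genes that had both motifs, from base -110 to base -30 before the annotated start, read 5′ to 3′ on the gene's strand. They lie at chr17:34287853-34287933 on the minus strand for H2-Aa and chr17:34305757-34305837 on the plus strand for H2-Eb1. Capitals mark forward-strand matches to the motifs searched.
H2-Aa: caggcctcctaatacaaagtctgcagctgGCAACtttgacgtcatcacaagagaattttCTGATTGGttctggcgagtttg
H2-Eb1: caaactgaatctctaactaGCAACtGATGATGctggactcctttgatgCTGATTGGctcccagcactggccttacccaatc

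The motifs were searched on both strands of the 250 bases before each start. The Y box core ATTGG lies within the longer form CTGATTGG. H2-Aa had the longer form from -51 to -44, H2-Eb1 had it from -62 to -55, and H2-DMb1 had the core alone from -61 to -57. H2-Eb1 also had a reverse match to the core from -35 to -31. The X box stretch GCAAC stood further upstream, from -81 to -77 in H2-Aa and from -91 to -87 in H2-Eb1. H2-DMb1 had no match to it and shared instead with H2-Eb1 the letters GATGATG, from -88 to -82 and from -85 to -79. That last motif was added after the promoters had been read. Neither RefSeq start of H2-DMa had this layout: one had a reverse GCAAC from -7 to -3 and the other ATTGG from -198 to -194. These starts, 34122832 and 34125518, lie inside the GENCODE gene, which begins at 34119541. Other starts of H2-DMa were not searched, so a layout elsewhere in its promoter region is not excluded. Over all 32851 promoters of the table, 33.8% held ATTGG, 29.9% GCAAC, 3.83% CTGATTGG and 2.92% GATGATG in the same window.

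**Figure D1:**
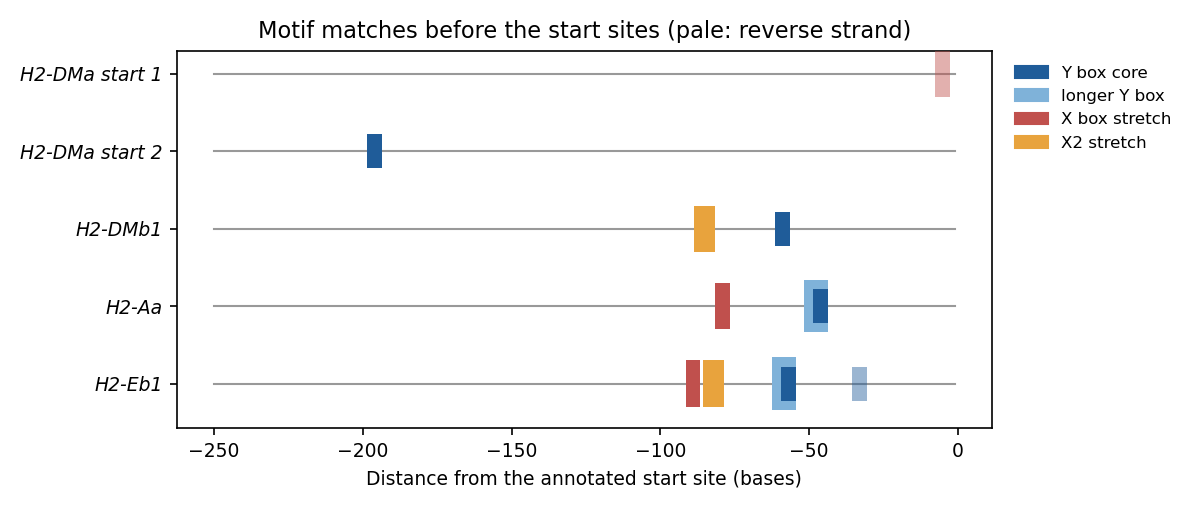
Motif matches in the 250 bases before each annotated start site of H2-Aa, H2-Eb1, H2-DMb1 and both starts of H2-DMa. The horizontal axis is the distance from the start in bases, and pale bars are matches on the reverse strand. In H2-Aa and H2-Eb1 an X box match lies upstream of a Y box match, and H2-DMb1 has a GATGATG match upstream of a Y box core. The key names GATGATG the X2 stretch, which is a label only and was not tested as a binding site. The H2-DMa starts searched, which lie inside the GENCODE gene, lack the pair.

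H2-Ab1, the beta chain of I-A, was the member with the largest excess in BALB/c. It stood at 51.5, 68.4 and 83.4 CPM in BALB/c replicates 1, 2 and 3. In C57BL/6 replicates 1, 2 and 3 it stood at 17.5, 17.0 and 20 CPM. The lowest BALB/c library lay well above the highest C57BL/6 library. The means were 67.7 ± 16 CPM (BALB/c) and 18.2 ± 1.61 CPM (C57BL/6; SD, n = 3 each). Its log2 difference, always taken as BALB/c minus C57BL/6, was 1.89 ± 0.30 (standard error, edgeR). H2-Ab1 is annotated on GRCm38 chromosome 17, from 34257689 to 34269419 on the plus strand.

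Its partner H2-Aa, the alpha chain of I-A, did not follow it. H2-Aa stood at 3.30, 4.96 and 7.67 CPM in BALB/c replicates 1 to 3, from 5, 14 and 8 counts. In C57BL/6 replicates 1 to 3 it stood at 8.35, 2.32 and 10.9 CPM, from 11, 3 and 54 counts. The strains overlapped, with the lowest and the highest library both in C57BL/6. The log2 difference was -0.53 ± 0.66. Because the genes are counted in the same library, their ratio does not depend on library scaling. There were 15.6, 13.8 and 10.9 H2-Ab1 counts per H2-Aa count in BALB/c replicates 1 to 3, and 2.09, 7.33 and 1.83 in C57BL/6 replicates 1 to 3. These ratios did not overlap between the strains, although that of C57BL/6 replicate 2 rests on 3 H2-Aa counts. H2-Aa lies on chromosome 17, from 34282744 to 34287823.

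H2-Eb1, the beta chain of I-E, was counted almost entirely in the C57BL/6 libraries. It had 1, 1 and 0 counts in BALB/c replicates 1, 2 and 3, against 11, 8 and 24 in C57BL/6 replicates 1, 2 and 3. The C57BL/6 libraries stood at 8.35, 6.18 and 4.85 CPM, and the BALB/c libraries at 0.660, 0.354 and 0 CPM. In BALB/c replicate 3 a count of 0 allows up to 2.88 CPM, the level of 3 counts. Summed over the strains, 2 counts in BALB/c faced 43 in C57BL/6. Scaled by effective library size, the C57BL/6 level was 15.3 times that of BALB/c. Its 95% counting interval, exact binomial, ran from 3.99 to 130.4 and covers counting error only. H2-Eb1 did not pass the filter on low counts and has no fitted difference. The reads were aligned to a reference of C57BL/6 origin. Its effect on BALB/c reads of H2-Eb1, and of the other H2 members, was not tested. Its position is chromosome 17, 34305867 to 34316674. The alpha chain gene H2-Ea does not appear in the table, so the partner chain of I-E was not analysed here.

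H2-DMb1, the beta chain of DM, had the same direction as H2-Eb1. It had 0, 1 and 2 counts in BALB/c replicates 1 to 3, or 0, 0.354 and 1.92 CPM, where 0 in replicate 1 allows up to 1.98 CPM. In C57BL/6 replicates 1 to 3 it had 37, 12 and 55 counts, or 28.1, 9.28 and 11.1 CPM. Every C57BL/6 library lay above every BALB/c library, and C57BL/6 replicate 1 was the highest. The 3 counts of BALB/c against 104 in C57BL/6 gave a ratio of 24.7, C57BL/6 over BALB/c, with a counting interval of 8.21 to 121.6. That interval too covers counting error only and leaves out the spread between libraries. The fitted log2 difference was -4.62 ± 0.97, and it passed the filter through the C57BL/6 libraries alone. Its last 500 nt match the neighbouring gene H2-DMb2 at 95.7% identity over 324 nt, so its counts are uncertain where reads could be shared. H2-DMb2 has no row in the table. H2-DMb1 lies on chromosome 17, from 34153072 to 34160230 in GENCODE, while the RefSeq start used for its motif positions is 34153191, so those matches fall in the first GENCODE exon. No other member met the limit of 95% identity over 60 nt with another gene.

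H2-DMa, the alpha chain of DM, was close to level in 5 of the 6 libraries. It stood at 19.1, 18.4 and 20.1 CPM in BALB/c replicates 1 to 3 and at 18.2, 6.18 and 17.4 CPM in C57BL/6 replicates 1 to 3. C57BL/6 replicate 2 was the low one, from 8 counts. The strains did not overlap, but the nearest libraries differed by less than the CPM of 1 count in either. The log2 difference was 0.44 ± 0.46. Of the counts of the DM pair in a library, H2-DMb1 made up 0%, 1.89% and 8.70% in BALB/c replicates 1 to 3. It made up 60.7%, 60% and 39.0% in C57BL/6 replicates 1 to 3. Relative to C57BL/6, the share of the beta chain in its pair's counts was lower in BALB/c for DM and higher for I-A. H2-DMa lies on chromosome 17, 34119541 to 34139101, and its exons overlap those of Brd2 on the opposite strand. Brd2 had a log2 difference of -0.45 ± 0.37, and any part of its reads in the H2-DMa counts was not tested.

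**Figure D2:**
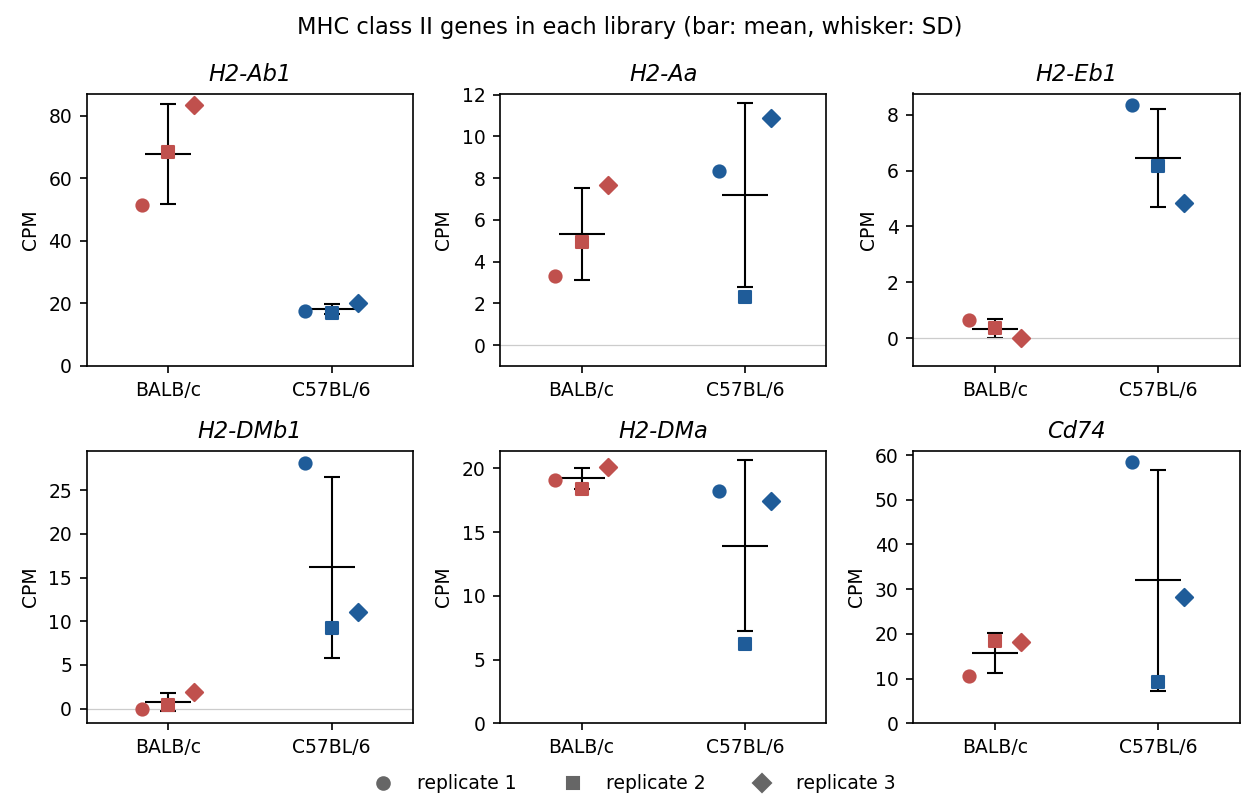
CPM of the 6 class II genes in every library, with a panel per gene and a vertical axis of its own. Points are libraries, the bar is the mean and the whisker the SD of 3 libraries. H2-Ab1 is higher in all BALB/c libraries, H2-Eb1 and H2-DMb1 lie near 0 there, and H2-Aa and Cd74 overlap.

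Cd74, the invariant chain, varied more among the C57BL/6 libraries than between the strains. It stood at 10.6, 18.4 and 18.2 CPM in BALB/c replicates 1 to 3, and at 58.4, 9.28 and 28.3 CPM in C57BL/6 replicates 1 to 3. C57BL/6 held both the highest and the lowest library. The means were 15.7 ± 4.48 CPM (BALB/c) and 32.0 ± 24.8 CPM (C57BL/6; SD, n = 3 each), and the log2 difference was -1.01 ± 0.63. The log2 ratio of the means was -1.02 with all libraries and -0.26 without C57BL/6 replicate 1. Unlike the other members, Cd74 lies outside the MHC, on chromosome 18 from 60803848 to 60812652.

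Summed over the 6 genes the strains overlapped in level, while the share of H2-Ab1 in it did not overlap. The sum was 85.1, 110.9 and 131.3 CPM in BALB/c replicates 1 to 3 and 138.9, 50.3 and 92.5 CPM in C57BL/6 replicates 1 to 3. The log2 ratio of the strain means was 0.22, and without C57BL/6 replicate 2 it was -0.08, with the sign turned. H2-Ab1 made up 60.5%, 61.7% and 63.5% of the counts of the 6 genes in BALB/c, against 12.6%, 33.8% and 21.6% in C57BL/6. H2-DMb1 and H2-Eb1 together with Cd74 filled the larger part of the C57BL/6 sum in replicate 1, where Cd74 alone held 42.1%. Without H2-Ab1 the sum was 33.6, 42.5 and 47.9 CPM (BALB/c) and 121.4, 33.2 and 72.5 CPM in C57BL/6 replicates 1 to 3.

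**Figure D3:**
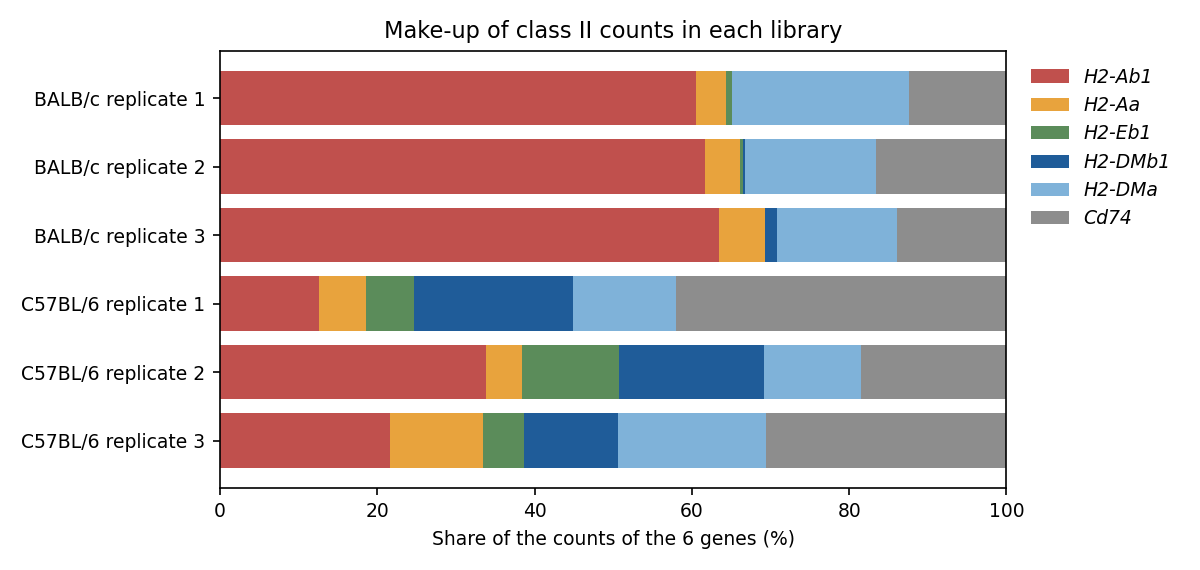
Share of each gene in the counts of the 6 class II genes, in percent, with a bar per library. H2-Ab1 takes over 60% of each BALB/c bar and 12.6% to 33.8% of the C57BL/6 bars, and H2-DMb1 and H2-Eb1 are visible mainly in C57BL/6.

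Of the 5 members that passed the filter on low counts, 0 were called by edgeR's quasi-likelihood test (adjusted p under 0.05), where 0.206% of all 8752 tested genes were called. DESeq2 called 2 of the 5, H2-Ab1 and H2-DMb1, against 0.811% of all tested genes, and limma-voom 0, against 0.0343%. H2-Ab1 and H2-DMa lay in BALB/c above every C57BL/6 library, as did 5.15% of tested genes. H2-DMb1 lay below, as did 6.26%. The list was drawn up with these levels known, and H2-DMb1 passed the filter through the C57BL/6 libraries alone. These counts are therefore given without a reading and are no test of the members.

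RNA of macrophage marker genes was counted in every library. The summed level of 13 macrophage markers, out of 15 listed, was 1004.0, 623.1 and 915.5 CPM in BALB/c replicates 1 to 3. It was 1952.2, 1008.9 and 1459.4 CPM in C57BL/6 replicates 1 to 3, higher than in every BALB/c library, if narrowly so in replicate 2. All 11 tested macrophage genes had a lower value in BALB/c, with a median log2 difference of -1.11 against 0.01 for all tested genes, and 0 were called in edgeR. Lyz2, which encodes lysozyme, stood at 471.0 ± 116.6 CPM (BALB/c) and 602.6 ± 142.7 CPM in C57BL/6. C1qa, a subunit of complement C1q, stood at 97.7 ± 30.7 and 212.0 ± 118.7 CPM (SD, n = 3 each). Of the macrophage markers, Adgre1 was at 0 in BALB/c replicate 3, Mertk at 0 in BALB/c replicate 2 and Mrc1 at 0 in C57BL/6 replicate 1. In bulk RNA, fewer cells of a type and less RNA per cell cannot be told apart.

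H2-Ab1 went against this marker level. Per 1000 counts of the macrophage list there were 51.2, 109.7 and 91.1 H2-Ab1 counts in BALB/c replicates 1 to 3, and 8.94, 16.9 and 13.7 in C57BL/6 replicates 1 to 3. The macrophage sum was itself lower in every BALB/c library, so this scale raises each member there relative to C57BL/6. On that scale H2-DMa no longer came close between the strains, at 23.6 ± 5.42 in BALB/c and 9.12 ± 2.89 in C57BL/6. Cd74 had 20 ± 9.55 in BALB/c and 19.5 ± 10.4 in C57BL/6, and H2-Aa had 6.54 ± 2.83 and 4.68 ± 2.61 (SD, n = 3 each). H2-Eb1 and H2-DMb1 stayed lower in BALB/c, at 0.409 ± 0.357 against 4.58 ± 1.43 and at 0.886 ± 1.08 against 10.4 ± 3.55. The part of macrophages in the class II counts was not tested.

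**Figure D4:**
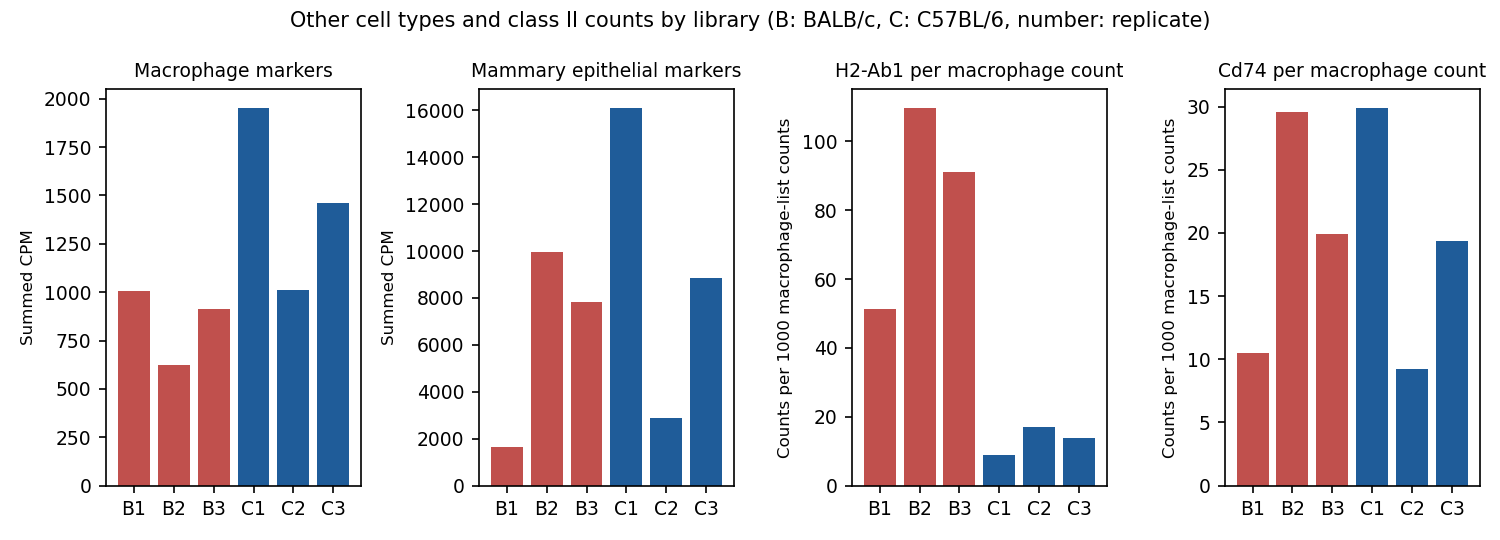
Summed CPM of macrophage markers and of mammary epithelial markers, and counts of H2-Ab1 and Cd74 per 1000 macrophage-list counts, with a bar per library. The macrophage sum is lower in BALB/c, the H2-Ab1 ratio is higher there, and the Cd74 ratio overlaps between the strains.

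Markers of other cell types also differed between libraries. The summed level of the 4 of 8 dendritic cell markers in the table was 7.67 to 13.2 CPM (BALB/c) and 25.5 to 30.3 CPM in C57BL/6. Itgax, which encodes CD11c, was at 0 in BALB/c replicate 3. Ccr7, a homing receptor of mature dendritic cells, was at 0 in all BALB/c libraries. In C57BL/6 replicates 1 to 3 Ccr7 stood at 1.52, 1.55 and 3.03 CPM. In the BALB/c libraries 3 counts are 1.06 to 2.88 CPM, so the zeros do not show its absence there. Irf8, a transcription factor of dendritic cells, B cells and macrophages, stood at 3.53 ± 1.27 CPM (BALB/c) and 14.0 ± 7.08 CPM (C57BL/6; SD, n = 3 each). The 5 B cell markers listed have no row in the table and were not analysed here. Among pan-leukocyte and T cell markers 2 of 7 were present: Coro1a at 12.8 ± 2.05 and 44.1 ± 30.1 CPM, and Ptprc at 1.43 ± 0.438 and 2.50 ± 2.17 CPM, in BALB/c and C57BL/6. Coro1a had an adjusted p of 0.913 in edgeR, and Ptprc fell below the count filter. Endothelial markers, 5 of 6 in the table, summed to 25.5 to 46.2 CPM (BALB/c) and 38.8 to 79.7 CPM in C57BL/6. Their part in the class II counts was not tested.

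The mammary epithelial markers, all 10 of them present, summed to 1667.6, 9971.4 and 7820.2 CPM in BALB/c replicates 1 to 3. In C57BL/6 replicates 1 to 3 they summed to 16102.8, 2863.6 and 8867.2 CPM. The library of each strain with the least epithelial RNA, BALB/c replicate 1 and C57BL/6 replicate 2, was also the one with the least Cd74, the least H2-Aa and the lowest class II sum. C57BL/6 replicate 1, with the most, had the highest Cd74, H2-DMb1 and class II sum. BALB/c replicate 1 and C57BL/6 replicate 2 also had the least H2-Ab1 and H2-DMb1 of their strain, although H2-Ab1 differed little among the C57BL/6 libraries. H2-Eb1 was instead lowest in BALB/c replicate 3 and C57BL/6 replicate 3. In BALB/c replicates 1 to 3 these orders rest on 0, 1 and 2 counts of H2-DMb1 and on 1, 1 and 0 counts of H2-Eb1. All of these are below 3 counts, so they do not rank the BALB/c libraries. H2-DMa was lowest in BALB/c replicate 2 and C57BL/6 replicate 2. Krt8 and Krt18, a keratin pair of luminal cells, were the most abundant of this list in both strains, and both overlapped between them. In BALB/c they stood at 1464.6 ± 981.8 and 1563.9 ± 1070.9 CPM. In C57BL/6 they stood at 2038.9 ± 1397.8 and 2461.7 ± 1688.4 CPM (SD, n = 3 each). The part of epithelial cells was not tested.

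Markers of the labelled cell type, fibroblasts, were in the table for 10 of 11. They summed to 10711.7, 4317.6 and 7779.9 CPM in BALB/c replicates 1 to 3 and to 2484.1, 11560.3 and 5562.2 CPM in C57BL/6 replicates 1 to 3. Vim, which encodes vimentin, stood at 3513.6 ± 859.1 CPM (BALB/c) and 2441.5 ± 1528.7 CPM in C57BL/6. Col1a2, a chain of collagen I, stood at 2374.7 ± 1564.1 and 2398.8 ± 2351.9 CPM (SD, n = 3 each). Both genes overlapped between the strains. Against the epithelial sums above, the fibroblast sum was higher in BALB/c replicate 1 and C57BL/6 replicate 2 and lower in the other four, if barely so in BALB/c replicate 3. C57BL/6 replicate 1 had the least summed fibroblast RNA and the most Cd74 RNA. Its 0 counts of the fibroblast marker Fap allow up to 2.28 CPM, the level of 3 counts. The list was mixed in that library: Pdgfrb was the highest of all libraries, at 340.7 CPM, and Col3a1 the lowest, at 20.5 CPM. Without that library the log2 ratio of the strain means went from 1.90 to 1.87 for H2-Ab1, from -4.42 to -3.75 for H2-DMb1 and from -4.26 to -4.03 for H2-Eb1. It went from -0.44 to -0.32 for H2-Aa and from 0.47 to 0.71 for H2-DMa.

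None of the genes tested around the class II pathway was called. Of 37 symbols listed, 23 were in the table and 20 were tested. Of these, 0 were called by edgeR (adjusted p under 0.05), and DESeq2 and limma-voom also called 0. Over all tested genes edgeR called 0.206%, DESeq2 0.811% and limma-voom 0.0343%. Unadjusted p in edgeR was under 0.05 for 2 of the 20, as for 3.86% of all tested genes. Their median log2 difference was -0.05, with 10 higher and 10 lower values in BALB/c, against a median of 0.01 over all tested genes.

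Transcription factors of the class II promoters had differences smaller than their standard errors. All 5 tested had log2 differences of 0.03 to 0.41, the highest for Nfyb at 0.41 ± 0.64, with a list median of 0.08. Nfyc, a subunit of NF-Y, stood at 49.8 ± 8.37 CPM (BALB/c) and 43.8 ± 0.416 CPM in C57BL/6, and Nfya, another, at 32.2 ± 6.20 and 30.6 ± 2.03 CPM (SD, n = 3 each). Rfx5 and Rfxank, subunits of RFX, had log2 differences of 0.03 ± 0.50 and 0.04 ± 0.40. Rfxap fell below the count filter. Ciita, the coactivator that switches the class II genes on, and Creb1 have no row in the table, so the main regulator was not analysed here.

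Interferon gamma signalling genes, through which fibroblasts raise class II, had lower values in BALB/c in 5 of 6, with a median log2 difference of -0.44 and 0 called. Ifngr2, a receptor chain, stood at 80.8 ± 12.3 CPM (BALB/c) and 118.4 ± 14.3 CPM in C57BL/6, and Jak1, a receptor kinase, at 141.8 ± 12.4 and 125.6 ± 33.3 CPM (SD, n = 3 each). The other receptor chain, Ifngr1, had a log2 difference of -0.59 ± 0.29. Ifngr1 and Ifngr2 lay in BALB/c below every C57BL/6 library, as did 6.26% of all tested genes, with an adjusted p of 0.954 in edgeR for each.

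Endosomal processing genes had a median of -0.54 over 6 tested, with 4 lower and 2 higher values in BALB/c and 0 called. Ctsd, the protease cathepsin D, stood at 1978.1 ± 692.3 CPM (BALB/c) and 3649.9 ± 2746.3 CPM in C57BL/6. Ifi30, a thiol reductase that unfolds antigens, stood at 155.0 ± 13.7 and 217.0 ± 20 CPM (SD, n = 3 each), a log2 difference of -0.48 ± 0.21 (edgeR adjusted p = 0.954). Ctss, cathepsin S, which trims the invariant chain, differed by -0.74 ± 0.30 on the log2 scale (edgeR adjusted p = 0.954), and Ctsl fell below the filter. Macrophage marker levels ran in the same direction beside this list, and their part was not tested.

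Among turnover and costimulation genes, 3 were tested. Marchf8, a ubiquitin ligase that removes class II from the surface, stood at 48.0 ± 0.965 CPM (BALB/c) and 41.4 ± 5.06 CPM in C57BL/6. Cd40, a costimulatory receptor, stood at 44.8 ± 8.74 and 42.9 ± 19.4 CPM. Cd274, which encodes the checkpoint ligand PD-L1, stood at 3.46 ± 2.87 and 10.7 ± 3.65 CPM (SD, n = 3 each), a log2 difference of -1.56 ± 0.67 (edgeR adjusted p = 0.954). Cd80 fell below the filter, and Cd86, Cd83 and Icosl have no row in the table. The other class II chains listed, H2-Eb2, H2-Oa and H2-Ob among them, have none either.

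**Figure D5:**
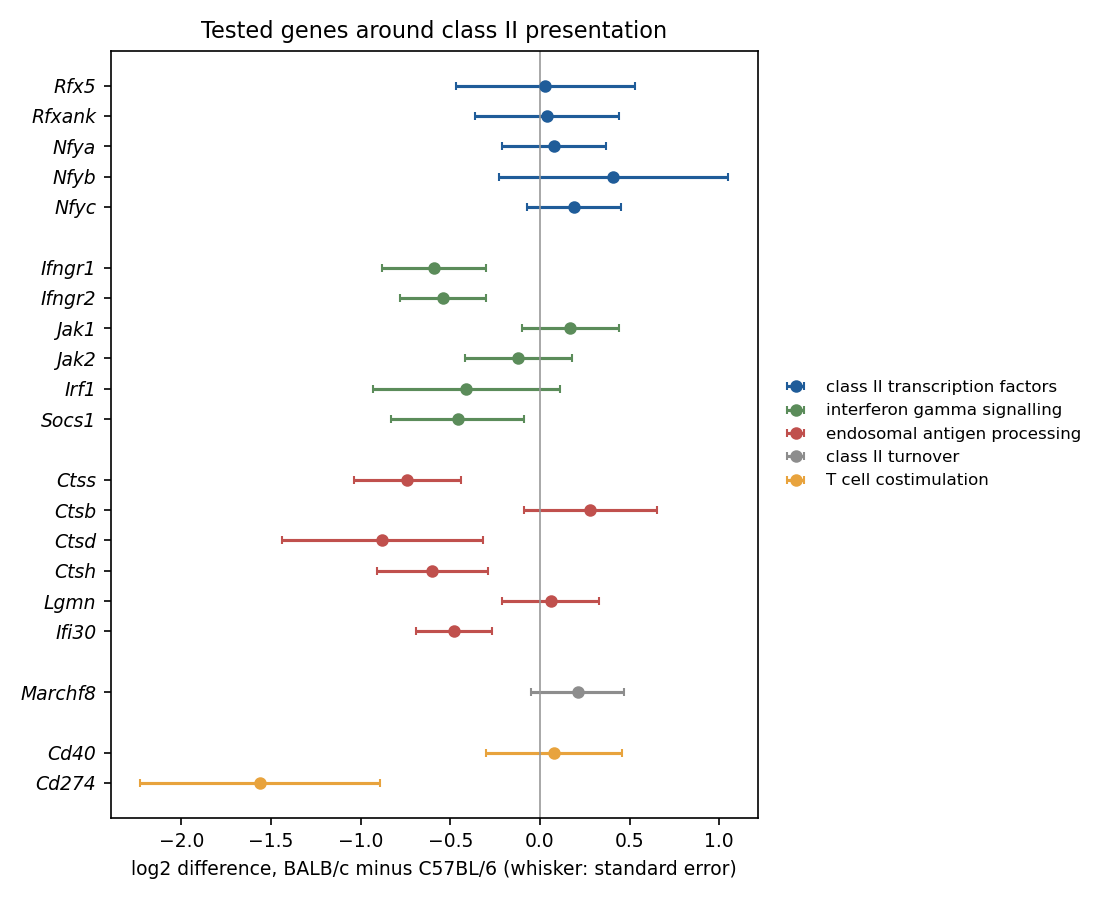
Log2 difference (BALB/c minus C57BL/6) and standard error of the 20 tested genes around class II presentation, in 5 lists. The transcription factors differ from 0 by less than their standard errors. The interferon gamma and endosomal lists have medians of -0.44 and -0.54, with none of the genes called in edgeR.

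Genes whose levels across the 6 libraries were most like the class II sum were ranked among 7863 tested genes by Pearson's r of log2 CPM. The highest was H2-Ke6, with r = 0.991 and a level of 25.0 CPM in C57BL/6 replicate 1 and 6.96 CPM in C57BL/6 replicate 2. Dalrd3 followed with 0.987, Fkbp4 and Rfc2 with 0.984, Tmem138 with 0.981, Peg13 with 0.979, Ebp with 0.978 and Efna1 with 0.975. All 8 were highest or second highest in C57BL/6 replicate 1 and lowest in C57BL/6 replicate 2. With 6 points and so many genes, values this high are a ranking only. Among the members themselves, H2-Eb1 and H2-DMb1 had r = 0.89 and Cd74 and H2-Aa 0.81, while H2-Ab1 had -0.99 with H2-Eb1 and -0.04 with H2-Aa. These r values describe 6 libraries that differ in strain and in composition, and the part of either was not tested.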

How the data were processed

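The authors deposited raw counts per gene symbol for 6 libraries. STAR 2.4.2a, HTSeq, bcl2fastq and the build mm10 are named in the submitters' processing notes, while settings, strand and treatment of shared reads are not stated there. Their reference is of C57BL/6 origin, and its effect on BALB/c reads of the polymorphic H2 genes was not tested. Each listed gene reached at least 6 counts in at least 1 library. Counts were filtered with filterByExpr, scaled with TMM and tested two-sided in edgeR 4.0.16 (R 4.3.3) by quasi-likelihood with strain as the only term and Benjamini-Hochberg adjustment. DESeq2 1.42.0 and limma 3.58.1 (voom) were alternatives, as were other scalings, no filter, a replicate block and leaving out each library. CPM use TMM-scaled totals, and the standard error is the log2 difference over the root of F. The fit was checked on simulated counts. Copies were searched with BLAST+ 2.17.0 in the last 500 nt of the longest coding transcript, and positions are from GENCODE vM21 on GRCm38, the assembly of mm10. Replicate pairs of a strain differed beyond sampling noise (chi-square per degree of freedom 10.8 to 57.2 over 5541 genes). Members and lists were chosen with earlier results of these data known. Named were every member, list genes called and the 2 highest of a list by mean CPM, and the 8 genes most like the class II sum; others are named for a value given with them. One gene of the pathway lists is not reported here and was left out of their counts.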

Additional observations from a re-analysis of the deposited data

How the results depend on the processing

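Of 54 alternative values of the single members' log2 ratio, 51 moved by less than the spread between replicates and 0 changed sign. The other 3 were H2-Eb1 at -5.19 without BALB/c replicate 1 and -3.67 without BALB/c replicate 3 (-4.26 with all), and H2-DMb1 at -6.51 without BALB/c replicate 3 (-4.42 with all), values that rest on 0 to 2 counts per BALB/c library. H2-Aa went from -0.44 to -0.01 without C57BL/6 replicate 3. H2-Ab1 stayed between 1.72 and 2.06 with a library left out. The summed level was 0.22 with all libraries and ran from -0.08 (without C57BL/6 replicate 2) to 0.61 (without C57BL/6 replicate 1) with a library left out; the cause was not tested. Pathway genes called stayed at 0 in all 12 alternatives. Among all genes tested, 18 were called, 6 higher and 12 lower, with 11 (5 and 6) by library totals alone, 71 in DESeq2, 3 in limma-voom and 0 to 25 with a library left out. Deviations of same-numbered libraries from their strain means had correlations of -0.421, -0.451 and -0.050, so no pairing by number was seen. Same-numbered libraries also differed in composition, so these values do not settle whether they were paired. The edgeR fit with the replicate block called 0 genes, with 158 at an unadjusted p under 0.05. Depth limits H2-Eb1 and H2-DMb1 in BALB/c, where 3 counts are 1.06 to 2.88 CPM.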
